A study of Mus musculus with 21 samples.

Results

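The genes described are Asns, Phgdh, Psat1, Psph, Shmt2, Mthfd2, Atf4, Atf5, Chac1 and Trib3: the enzymes that make asparagine and serine, the mitochondrial one-carbon enzymes that use serine, and the transcription factor ATF4 with some of its partners and targets. They were chosen by symbol, and each is represented by 1 microarray probeset that carries that symbol alone. All 10 were measured, of 19938 genes with such a probeset, and all 10 passed the filter on low signal that left 13956 genes for testing. Phgdh has a further probeset, shared with Gm6756, which was left out.

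The samples were mouse muscle stem cells (satellite cells), sorted by YFP from hindlimb muscle and not cultured, at 3 to 5 months of age and at least 2 weeks after tamoxifen. Every mouse, WT included, carried Pax7CreER/+, which turns on Cre in Pax7-expressing cells after tamoxifen, and the YFP reporter Rosa26REYFP/+. Each pool held cells of 3 to 4 mice. QSC (quiescent satellite cells) came from noninjured mice. CSC (contralateral satellite cells) came from the leg opposite a muscle injured with BaCl2, taken 2.5 days after injury unless 28 days are named. The conditional knockouts, all on the same Cre and reporter, were TSC1flox/flox (1 QSC pool), Rptrflox/flox (1 CSC and 1 QSC pool) and cMetflox/flox (1 CSC and 1 QSC pool). TSC1 inhibits the kinase complex mTORC1, raptor (Rptor) is a subunit that mTORC1 needs, and cMet is the receptor for hepatocyte growth factor. WT mice gave 1 CSC pool at 28 days, 3 CSC pools at 2.5 days and 3 QSC pools. The strain is given as mixed C57BL6 for all groups but the cMet knockouts, which are given as C57BL6 mixed FVB. The question posed by the design is how WT stem cells distant from an injury respond to it, and how the response differs when mTORC1 or cMet signalling is altered.

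All levels are RMA log2 signals, in which 1 unit is a 2-fold change, and levels of different genes are not compared because probes differ in brightness. The 12 pools were measured on 21 arrays, and arrays of a pool were averaged. The largest gap between 2 arrays of a pool for any of the 10 genes was 0.57. The median SD of a gene across pools was 0.131 in WT CSC and 0.207 in WT QSC. A single pool has no replicate of its own. Its test borrows the spread of the WT pools, so that an effect of genotype or time and a trait of that 1 pool cannot be told apart. Satellite cell markers (12 genes, among them Pax7, Myf5 and Cdh15) averaged 10.93 to 11.15 in the WT CSC pools and 11.49 to 11.92 in the WT QSC pools, and no single-pool group lay below 11.14. Markers of other cells were also detected. Endothelial markers (12 genes) averaged 7.83 to 8.27 in WT CSC and 8.78 to 9.51 in WT QSC, and macrophage markers (8 genes) stood highest, at 9.47, in the Rptor KO CSC pool. Probesets of the targeted genes sum probes along the transcript and do not check an exon deletion: Tsc1 was at 8.16 in TSC1 KO QSC, Rptor at 8.85 and 9.19 in Rptor KO CSC and QSC, and Met at 10.13 and 10.25 in cMet KO CSC and QSC. In WT QSC the pools ran from 8.34 to 8.69 for Tsc1, from 8.91 to 9.58 for Rptor and from 9.93 to 10.11 for Met. In WT CSC at 2.5 days they ran from 9.43 to 9.84 for Rptor and from 10.63 to 10.94 for Met. The Rptor KO CSC and cMet KO CSC pools lay below these ranges of their targeted genes. The QSC pools differed: Tsc1 in TSC1 KO QSC lay below its WT QSC range, and Rptor in Rptor KO QSC lay within its range. Met in cMet KO QSC was not lower than in WT QSC and lay above all WT QSC pools. In bulk samples such as these, a change in the share of cells of one type and a change in RNA per cell cannot be told apart.

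ATF4 is made when the initiation factor eIF2 is phosphorylated by stress-sensing kinases, because its mRNA is then translated better, and mTORC1 can also raise its translation. Its mRNA level is therefore only a partial guide to its activity. ATF4 pairs with C/EBP proteins on composite elements and switches on genes for amino acid synthesis and uptake, along with stress genes such as Chac1 and Trib3. Serine is made from a glycolytic intermediate by Phgdh, Psat1 and Psph in turn. Shmt2 then passes a carbon of serine to folate in mitochondria, and Mthfd2 oxidises that folate for use in making purines and thymidylate. Asns makes asparagine from aspartate.

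The promoters of the 10 genes were read from RefSeq windows of 250 bases before to 50 bases after each annotated start (build GRCm38.p6), and all 10 matched, with 12 windows. They were searched on both strands for TGATGNAA, the core of the C/EBP-ATF composite element, a motif held by 3.97% of 32851 windows of all genes. It lay in the windows of Asns, Chac1 and Trib3. These 3 are shown because they hold the letters ATF4 is known to read, and because Asns on one side and Chac1 and Trib3 on the other behaved differently below. The match is in capitals, and it reads on the opposite strand in Chac1 and Trib3.
Asns (chr6:7693160-7693459, minus strand): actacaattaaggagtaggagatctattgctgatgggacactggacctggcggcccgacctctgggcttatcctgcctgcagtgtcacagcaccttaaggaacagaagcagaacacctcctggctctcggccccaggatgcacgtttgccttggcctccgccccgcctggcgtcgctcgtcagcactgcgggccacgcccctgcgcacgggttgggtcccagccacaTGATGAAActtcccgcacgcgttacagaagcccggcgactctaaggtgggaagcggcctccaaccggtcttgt
Chac1 (chr2:119350992-119351291, plus strand): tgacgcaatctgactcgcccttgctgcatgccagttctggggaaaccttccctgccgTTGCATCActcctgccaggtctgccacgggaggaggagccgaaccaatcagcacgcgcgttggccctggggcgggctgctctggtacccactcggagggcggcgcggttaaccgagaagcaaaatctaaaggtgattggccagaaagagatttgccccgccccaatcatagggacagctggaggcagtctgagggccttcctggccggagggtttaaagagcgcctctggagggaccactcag
Trib3 (chr2:152344011-152344310, minus strand): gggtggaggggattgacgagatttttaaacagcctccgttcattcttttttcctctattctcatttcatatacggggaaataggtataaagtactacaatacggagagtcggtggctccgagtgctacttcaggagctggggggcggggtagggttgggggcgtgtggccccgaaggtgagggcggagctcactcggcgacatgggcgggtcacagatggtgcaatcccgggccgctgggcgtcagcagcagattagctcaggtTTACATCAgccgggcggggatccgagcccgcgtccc

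The match starts 23 bases before the annotated start in Asns (position -23), at -193 in Chac1 and at position 15 after the start in Trib3. No window of the 10 genes held the palindromic cAMP response element TGACGTCA (1.79% of all windows) or the E-box CACGTG (7.15%), a motif that MYC and TFEB read. These matches describe letters in the windows and are not binding data, and the other promoters may hold elements elsewhere.

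In WT stem cells opposite an injury, enzymes of asparagine and serine synthesis rose at 2.5 days, while Atf4, Atf5, Chac1 and Trib3 did not pass the test in either direction. Of the 10 genes, 5 were higher in WT CSC than in WT QSC and none was lower (limma, Benjamini-Hochberg adjusted p under 0.05 over 13956 genes, n = 3 pools against 3). Across all genes tested, 10.6% were called higher. The median difference of the 10 genes was 0.56, against -0.05 over all genes. The 5 were Asns, Phgdh, Psat1, Shmt2 and Psph.

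Asns, asparagine synthetase, was at 11.16, 10.81 and 10.86 in the WT CSC pools, against 8.47, 9.04 and 9.20 in the WT QSC pools. The groups stood apart, with 1.61 between their nearest pools. Its rise was the largest of the 10 genes, 2.04 ± 0.20 (SE, 4.11-fold, adjusted p = 0.000398).

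Phgdh, the first and committed enzyme of serine synthesis, was at 9.25, 9.59 and 9.68 in WT CSC, against 7.97, 7.79 and 8.28 in WT QSC. Every CSC pool lay above every QSC pool, and the rise was 1.49 ± 0.17 (SE, 2.81-fold, adjusted p = 0.000852). Psat1, the aminotransferase of the next step, was at 10.63, 10.74 and 10.90 in WT CSC, against 9.68, 9.49 and 9.53 in WT QSC. These groups were also apart, with small spreads of 0.13 in WT CSC and 0.10 in WT QSC (SD), and Psat1 rose by 1.19 ± 0.13 (SE, 2.29-fold, adjusted p = 0.000687). Psph, the phosphatase that releases serine, was at 8.45, 8.59 and 8.55 in WT CSC, against 7.85, 7.98 and 8.03 in WT QSC. It showed the smallest of the 5 rises, 0.58 ± 0.12 (SE, adjusted p = 0.0141), and its call was lost without WT CSC pool 2 (adjusted p = 0.072) or pool 3 (0.0671). All 3 steps from the glycolytic intermediate to serine were thus higher.

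Shmt2, the mitochondrial serine hydroxymethyltransferase, was at 10.11, 10.39 and 10.22 in WT CSC, against 9.25, 8.22 and 8.97 in WT QSC. The QSC pools were widely spread, with pool 2 low, and the groups did not overlap. The rise was 1.43 ± 0.24 (SE, 2.69-fold, adjusted p = 0.00498). Mthfd2, the next enzyme of the mitochondrial folate path, was at 11.23, 11.59 and 11.49 in WT CSC, against 10.65, 10.91 and 11.14 in WT QSC. Its groups did not overlap either, but pool 1 of CSC lay only 0.09 above pool 3 of QSC. The difference of 0.54 ± 0.16 (SE) missed the threshold at an adjusted p of 0.0519, which ranged from 0.0246 to 0.187 over the alternative settings.

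Atf4 itself was at 10.68, 10.90 and 10.82 in WT CSC, against 10.98, 11.01 and 11.00 in WT QSC. All CSC pools lay slightly below the tight QSC values, and the difference of -0.19 ± 0.12 (SE) did not pass the test (adjusted p = 0.32, 95% interval -0.47 to 0.08). Trib3, a pseudokinase that restrains ATF4, was at 7.91, 7.98 and 7.81 in WT CSC, against 8.27, 8.04 and 7.99 in WT QSC. It too lay lower in every CSC pool without passing (-0.20 ± 0.13, SE, adjusted p = 0.337). Both differences were smaller in size than those of the enzymes. For Trib3 the highest CSC pool, at 7.98, was only just under the lowest QSC pool, at 7.99.

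Chac1, which degrades glutathione, was at 10.12, 10.60 and 10.22 in WT CSC, against 10.68, 10.69 and 10.21 in WT QSC. Atf5, an ATF4-related factor of the mitochondrial stress response, was at 8.82, 8.89 and 8.95 in WT CSC, against 9.51, 8.88 and 9.13 in WT QSC. Pools of the groups overlapped for both genes, and the differences were -0.21 ± 0.18 (SE) for Chac1 and -0.29 ± 0.17 (SE) for Atf5. Counted by pools, 6 of the 10 genes were higher in all WT CSC pools than in all WT QSC pools, against 18.7% of all genes. By the same count 2 were lower, Atf4 and Trib3, against 19.1% of all genes.

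**Figure D1:**
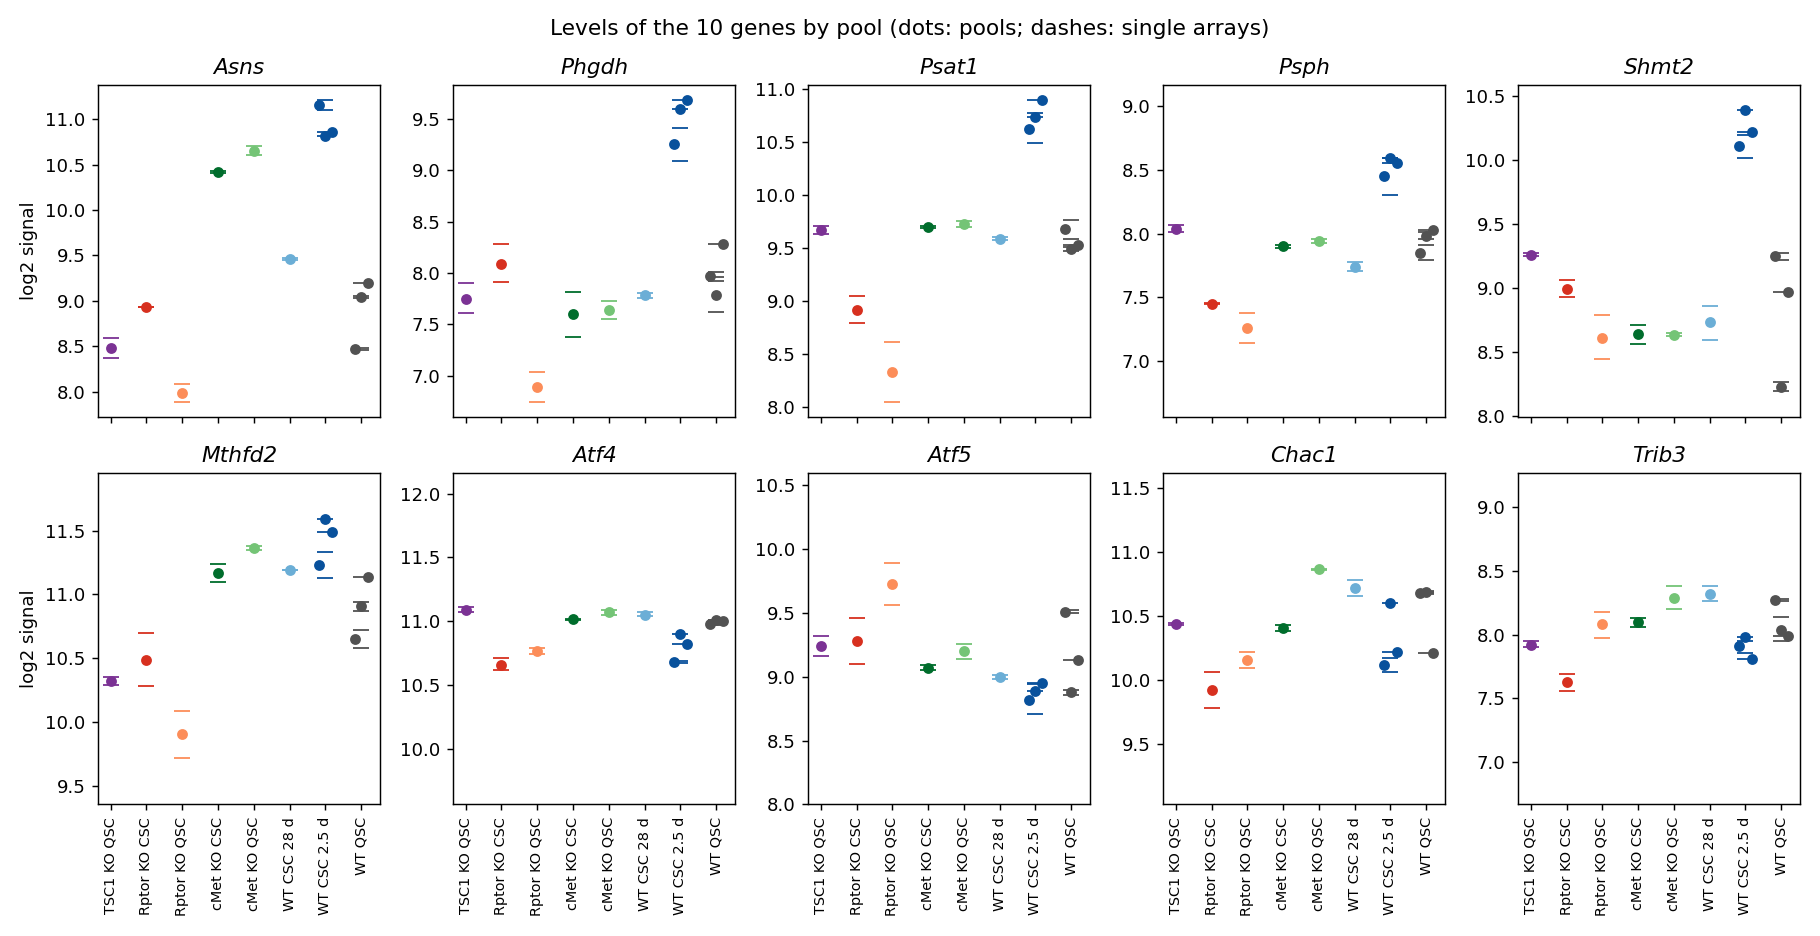
Log2 signal (y axis, with its own range in each panel) of the 10 genes in the 8 groups (x axis). Dots are pools, dashes are single arrays. Asns, Phgdh, Psat1, Psph and Shmt2 are higher in all 3 WT CSC 2.5 d pools than in all 3 WT QSC pools, Atf4 varies from 10.66 to 11.09 over all pools, and Asns is at 10.42 and 10.65 in the cMet KO CSC and QSC pools.

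The pathways around these genes were read from lists of other genes. Of 15 further ATF4 stress targets tested, none was higher in WT CSC than in WT QSC and 4 were lower, with a median of -0.43 and with 7.36% of all genes called lower. These were Atf3, a stress-induced factor (-1.15 ± 0.22, SE), Ppp1r15a, which directs the phosphatase that reverses eIF2 phosphorylation (-0.96 ± 0.16), Ddit3, or CHOP (-0.80 ± 0.20), and Cebpg, a C/EBP partner of ATF4 (-0.68 ± 0.16). Immediate-early genes, which dissociation of tissue is known to induce, moved the same way, with 13 of 15 lower and a median of -0.99. Their part in the stress gene values was not tested.

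The folate one-carbon list had 9 of 15 tested genes higher, none lower and a median of 0.56, with 10.6% of all genes called higher. Tyms, which makes thymidylate, led it (1.98 ± 0.20, SE, adjusted p = 0.000475), followed by Mthfd1l of mitochondrial formate production (1.19 ± 0.16), Gart of purine synthesis (1.17 ± 0.18) and Sfxn1, which carries serine into mitochondria (1.09 ± 0.17). Of 13 other amino acid synthesis genes 4 were higher and 1 was lower. Got1, the cytosolic aspartate aminotransferase, rose by 1.63 ± 0.17 (SE, adjusted p = 0.000515), Bcat1 by 0.93 ± 0.25, Aldh18a1 of proline synthesis by 0.92 ± 0.16 and Pycrl by 0.79 ± 0.16. Cbs, which draws serine into cysteine synthesis, fell by 0.73 on the log2 scale.

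Amino acid transporters had 3 of 10 higher and none lower, with 10.6% of all genes called higher. They were led by the cystine carrier Slc7a11 (1.06 ± 0.25, SE, adjusted p = 0.0204), with Slc38a1 (0.44 ± 0.12) and Slc7a3 (0.41 ± 0.12). Cytosolic tRNA synthetases had 8 of 18 higher and none lower, with a median of 0.45. The largest rises were in Vars (1.35 ± 0.28, SE), Kars (1.00 ± 0.16), Wars (0.85 ± 0.20) and Rars (0.77 ± 0.16). Of 13 tested genes for the eIF2 kinases, eIF2 and its exchange factor eIF2B, 5 were higher and none was lower. The largest rises were in the eIF2B subunit genes Eif2b5 (0.97 ± 0.19), Eif2b1 (0.72 ± 0.13) and Eif2b2 (0.64 ± 0.16), and in the heme-regulated kinase Eif2ak1 (0.53 ± 0.16).

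ER chaperones and sensors, which mark the unfolded protein response, had 2 of 15 higher, Creld2 (0.85 ± 0.24, SE) and Sdf2l1 (0.83 ± 0.25), and a median of 0.08. That count is near the share of all genes called higher, 10.6%, and 7.36% of all genes were called lower. Glutathione genes had 3 of 9 higher: Gsr, which regenerates glutathione (1.38 ± 0.16), Gpx1 (1.03 ± 0.15) and Gclc (0.53 ± 0.13). Cell cycle genes moved with the enzymes in the same samples. Of 15 tested, 14 were higher in WT CSC, with a median of 2.04, and the list averaged 10.23 to 10.24 in the WT CSC pools and 8.23 to 8.46 in the WT QSC pools. Satellite cell markers were lower in 6 of 12, with a median of -0.66, among them Pax7 (-1.07 ± 0.25, SE), Calcr (-1.16 ± 0.23) and Chodl (-1.28 ± 0.17). Markers of other cells were lower too, 8 of 12 for endothelial cells, 6 of 9 for pericytes and smooth muscle (Rgs5 at -1.53 ± 0.25) and 4 of 9 for fibro-adipogenic cells (Dcn at -1.17 ± 0.19). Mature fibre markers had 3 of 10 higher, led by the muscle enolase Eno3 (3.59 ± 0.17), and none of 8 macrophage markers passed. The part of these lists in the enzyme values was not tested.

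**Figure D2:**
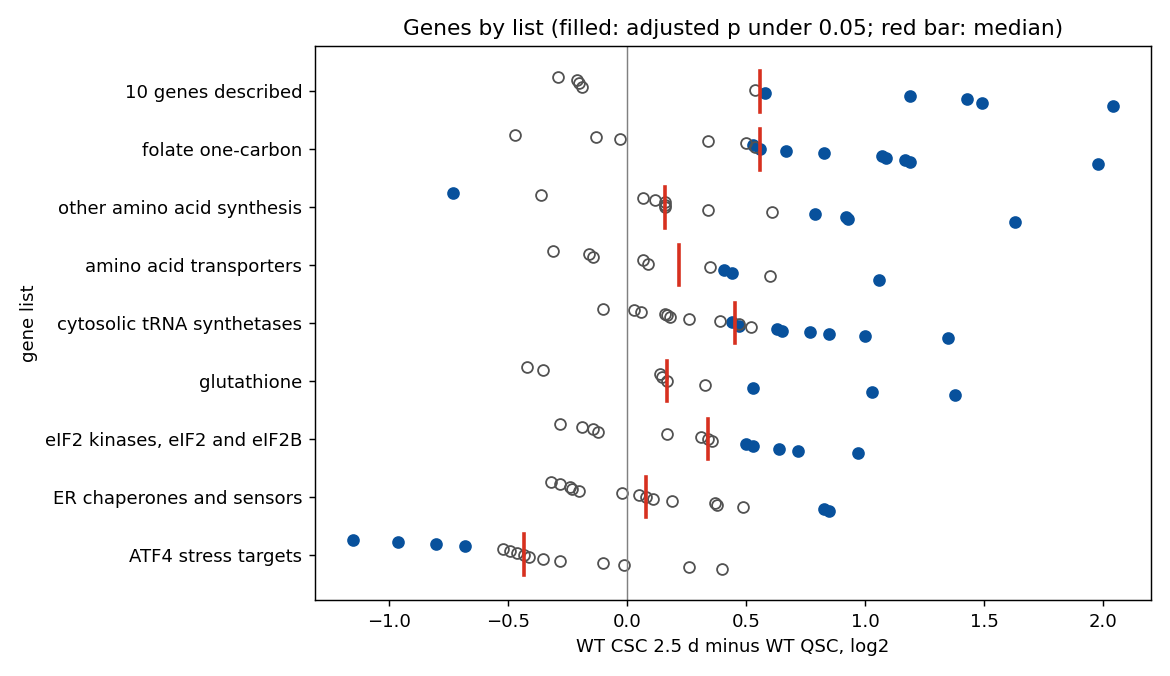
Difference of each gene between WT CSC 2.5 d and WT QSC (x axis, log2) by gene list (y axis). Filled dots passed the test, open dots did not, and red bars are list medians, which run from 0.56 for the 10 genes and for folate one-carbon metabolism to -0.43 for ATF4 stress targets.

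At 28 days after injury, 5 of the synthesis and one-carbon enzymes were lower than at 2.5 days. None of the 10 genes passed the test in the 28-day WT CSC pool against WT QSC, nor did any gene (0% called, while 637 of 13956, or 4.56%, had an unadjusted p under 0.05, and none of those was among the 10). Asns was at 9.46 in the 28-day pool, above the highest WT QSC pool at 9.20, a difference of 0.56 ± 0.28 (SE, 95% interval -0.08 to 1.20). Phgdh, at 7.79, and Psph, at 7.74, lay at or below the lowest WT QSC pool, and Psat1 (9.59) and Shmt2 (8.73) lay within the range of the QSC pools. Counted by pools, 5 of the 10 genes lay above all WT QSC pools and 2 below, against 19.8% and 19.0% of all genes. The 5 were Asns, Mthfd2 (11.19), Atf4 (11.05), Chac1 (10.72) and Trib3 (8.32).

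Set against WT CSC at 2.5 days, 5 of the 10 genes were lower at 28 days, with 6.32% of all genes called lower. Phgdh was lower by the most (-1.72 ± 0.24, SE, adjusted p = 0.00469), followed by Shmt2 (-1.51 ± 0.34, adjusted p = 0.0284), Asns (-1.48 ± 0.28, adjusted p = 0.0156), Psat1 (-1.17 ± 0.19, adjusted p = 0.00767) and Psph (-0.78 ± 0.17, adjusted p = 0.0276). The calls of Psph and Shmt2 were lost without WT CSC pool 1, 2 or 3, leaving 3. Mthfd2 differed little, at 11.19 in the 28-day pool (-0.25 ± 0.23, SE). Trib3 was at 8.32 and Chac1 at 10.72 in the 28-day pool, above all WT CSC pools at 2.5 days, and neither passed. Of the one-carbon list 4 of 15 were lower, among them Tyms (-1.96 ± 0.29), Sfxn1 (-1.22 ± 0.24) and Mthfd1l (-1.16 ± 0.23). Of the stress targets, Atf3 (1.44 ± 0.31) and Ppp1r15a (1.23 ± 0.23) were higher, with 2.06% of all genes called higher. Cell cycle genes were lower in 14 of 15 and mature fibre markers in 3 of 10, and of the 12 satellite cell markers 1, Chodl, was higher. Their part was not tested.

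Deletion of TSC1 is known to raise mTORC1 activity. In noninjured muscle none of the 10 genes passed the test in TSC1 KO QSC against WT QSC, and 2 of all genes did (0.0143%). Asns was at 8.48 in the TSC1 KO pool, just above the lowest WT QSC pool, and Psat1, at 9.67, was within the WT QSC range. Mthfd2 was the farthest off, at 10.32 against 10.65 to 11.14 in WT QSC (-0.58 ± 0.23, SE, adjusted p = 0.548). Shmt2 was at 9.26 against 8.22 to 9.25 in WT QSC (0.45 ± 0.34), and Atf4 at 11.09 against 10.98 to 11.01. The intervals were wide: that of Asns ran from -1.06 to 0.22 and that of Phgdh from -0.81 to 0.29.

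In noninjured Rptor KO cells, 7 of the 10 genes lay below all 3 WT QSC pools, against 26.5% of all genes, but none passed the test. Of all genes, 0.122% passed. The median difference of the 10 was -0.53, against 0.00 over all genes, and 6 had an unadjusted p under 0.05, as did 11.3% of all genes. Psat1 was at 8.33 in Rptor KO QSC, against 9.68, 9.49 and 9.53 in WT QSC, a difference of -1.24 ± 0.19 (SE). Its adjusted p was 0.0587, and it ranged from 0.0069 to 0.171 over the alternatives, 5 of which called it. Of the other genes below all WT QSC pools, 4 were synthesis or one-carbon enzymes.

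Phgdh was at 6.89 in Rptor KO QSC against 7.79 to 8.28 in WT QSC (-1.12 ± 0.24, SE, adjusted p = 0.161). Mthfd2 was at 9.91 against 10.65 to 11.14 (-0.99 ± 0.23, adjusted p = 0.172), and Asns at 7.99 against 8.47 to 9.20 (-0.91 ± 0.28, adjusted p = 0.269). Psph was at 7.26 against 7.85 to 8.03 (-0.70 ± 0.17, adjusted p = 0.201). For all of these the single Rptor KO pool was the lowest of the 12. Shmt2, at 8.61, and Trib3, at 8.08, lay within the WT QSC range. Atf4 was at 10.77 (-0.23 ± 0.17, SE) and Chac1 at 10.16 (-0.37 ± 0.26), both under all WT QSC pools. Atf5 alone lay above them, at 9.73 (0.55 ± 0.24, SE, adjusted p = 0.431). Cell cycle genes were lower in 4 of 15 in the same pool, with a list mean of 7.53 against 8.23 to 8.46 in WT QSC, and their part was not tested.

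**Figure D3:**
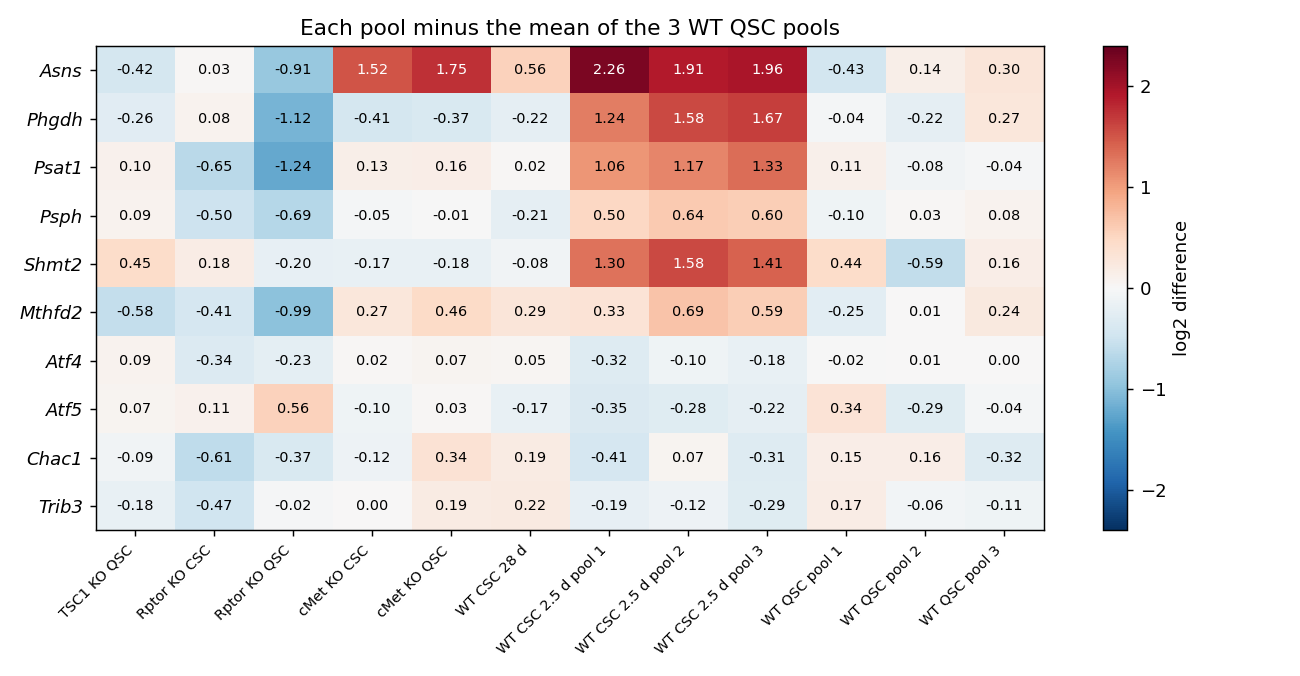
Log2 difference of each of the 12 pools (columns) from the mean of the 3 WT QSC pools, for the 10 genes (rows). Red is higher and blue lower. The Rptor KO QSC column is lowest for Psat1 (-1.24) and Phgdh (-1.12), and the cMet KO CSC and QSC columns are at 1.52 and 1.75 for Asns.

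After injury, the serine and asparagine enzymes were lower in Rptor KO than in WT cells. In Rptor KO CSC against WT CSC, a comparison added after the values were seen, 4 of the 10 genes were lower and none higher, with 2.97% of all genes called lower and a median of -1.01 for the 10 genes. Asns was at 8.93 in Rptor KO CSC, against 11.16, 10.81 and 10.86 in WT CSC, a 4.04-fold lower level (-2.01 ± 0.28, SE, adjusted p = 0.0106). Psat1 was at 8.92 in Rptor KO CSC, against 10.63, 10.74 and 10.90 in WT CSC (-1.84 ± 0.19, adjusted p = 0.0048). Psat1 in this pool was also below every WT QSC pool.

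Phgdh was at 8.09 in Rptor KO CSC against 9.25 to 9.68 in WT CSC (-1.41 ± 0.24, SE, adjusted p = 0.02). Psph was at 7.45 against 8.45 to 8.59 (-1.08 ± 0.17, adjusted p = 0.017). Shmt2, at 8.99 (-1.24 ± 0.34, adjusted p = 0.0799), and Mthfd2, at 10.49 (-0.94 ± 0.23, adjusted p = 0.0599), lay below all WT CSC pools without passing. The count fell to 2 without WT CSC pool 2 and to 1, Psat1, without pool 3. Got1 (-1.06 ± 0.24, SE) and Bcat1 (-1.61 ± 0.36) were the called genes of the other amino acid list. No one-carbon or stress target gene passed, although the one-carbon median was -0.59. In this pool 7 of 8 macrophage markers were higher than in WT CSC, with a list mean of 9.47 against 7.55 to 7.71 and with 0.924% of all genes called higher. In the same pool 2 of 10 mature fibre markers, Eno3 and Actn3, were lower, and 9 of 15 cell cycle genes were lower, with a list mean of 8.99 against 10.23 to 10.24. Adgre1 and Mrc1 were under the signal filter. The part of these lists in the enzyme values was not tested.

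Within the Rptor KO genotype the enzymes were nonetheless higher in CSC than in QSC by point estimate, with wide errors. Phgdh was at 8.09 in CSC against 6.89 in QSC (1.20 ± 0.30, SE, adjusted p = 0.323), and Asns at 8.93 against 7.99 (0.94 ± 0.35, adjusted p = 0.831). Psat1 and Mthfd2 each differed by 0.59, Shmt2 by 0.38 and Psph by 0.20. None of the 10 passed, and 0.258% of all genes did. The difference of this response from that of WT was tested directly, and none of the 10 genes passed, nor did any gene (0% called, with 2 of the 10 and 4.44% of all genes at an unadjusted p under 0.05). It was -1.10 ± 0.40 (SE, 95% interval -2.01 to -0.20) for Asns, -1.04 ± 0.48 for Shmt2, -0.60 ± 0.26 for Psat1 and -0.29 ± 0.35 for Phgdh. Between the Rptor KO QSC and CSC pools the macrophage list mean went from 7.67 to 9.47, and the cell cycle list mean from 7.53 to 8.99. The part of these lists in the enzyme values was not tested.

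**Figure D4:**
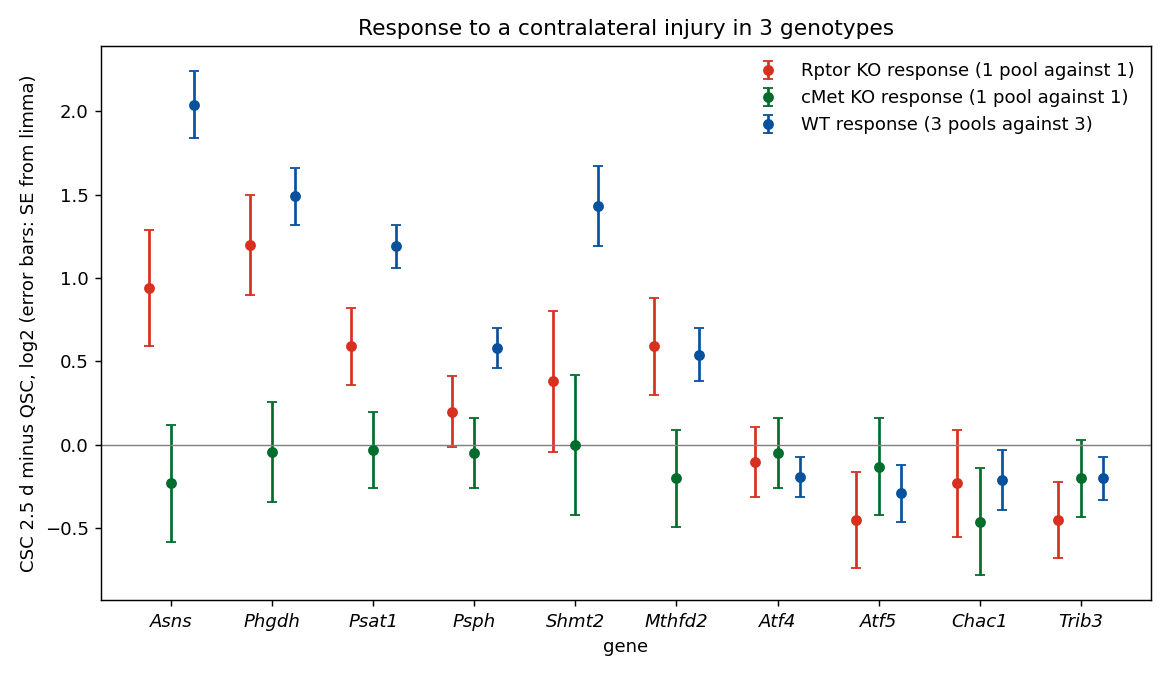
Difference between CSC 2.5 d and QSC (y axis, log2, error bars are SE from limma) of the 10 genes (x axis) in Rptor KO, cMet KO and WT. Asns differs by 0.94 in Rptor KO, -0.23 in cMet KO and 2.04 in WT, and the 4 genes at the right lie near or below 0 in all genotypes.

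In noninjured cMet KO cells, Asns stood above all WT QSC pools by more than any other of the 10 genes. Asns was at 10.65 in cMet KO QSC, against 8.47, 9.04 and 9.20 in WT QSC, a 3.35-fold higher level (1.75 ± 0.28, SE, 95% interval 1.11 to 2.38). Of 13956 genes it ranked 1 by p (unadjusted p = 0.000159) and 1 by size of the difference. No gene passed the adjustment in this comparison (0% called, with 185 genes, or 1.33%, at an unadjusted p under 0.05, of the 10 Asns alone), and the adjusted p of Asns was 1. It was 0.00102 with all arrays fitted and the pool as a random block, and did not pass under the other 13 alternatives. The arrays of the cMet KO pool are technical and do not replicate the genotype.

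The serine enzymes and Shmt2 differed from WT QSC by less than 0.4 in cMet KO QSC. Phgdh was at 7.64 (-0.37 ± 0.24, SE), Psat1 at 9.73 (0.17 ± 0.19), Psph at 7.94 (-0.01 ± 0.17) and Shmt2 at 8.63 (-0.18 ± 0.34). Mthfd2 was at 11.36 (0.47 ± 0.23), above all WT QSC pools, as were Asns, Psat1, Chac1 at 10.87, Trib3 at 8.29 and Atf4 at 11.07. Thus 6 of the 10 genes lay above all WT QSC pools and 1 below, against 20.3% and 8.54% of all genes. This was not particular to the cMet KO pool. The 28-day WT CSC pool had 5 above, Asns, Mthfd2, Atf4, Chac1 and Trib3, which are all among the 6, and 2 below. Some margins were small: the highest WT QSC pool was at 8.27 for Trib3, 9.68 for Psat1 and 11.01 for Atf4. Slc7a11, the cystine carrier, was at 8.13 in cMet KO QSC against 6.54, 7.17 and 7.58 in WT QSC, a gene picked after its values were seen. Asns and Met lie on the same chromosome, Asns at chr6:7675165-7693209 and Met at chr6:17463349-17573980 (GRCm38.p6), 9.77 Mb apart. Of 37 tested genes within 10 Mb of Met, Asns included, it was the only one with an unadjusted p under 0.05 or a difference over 1, and 18 of all genes differed by over 1. Since Asns ranked 1 of all genes, its place first in this window was fixed, and an effect of its location was not tested. The cMet KO mice also differ from the others in the strain given, so the genotype, the strain and the single pool cannot be told apart. In the cMet KO QSC pool the endothelial list mean was 9.57, against 8.78 to 9.51 in WT QSC. The fibro-adipogenic mean was 9.73 against 9.26 to 9.60, and the satellite cell mean 11.48 against 11.49 to 11.92. The macrophage, mature fibre, and pericyte and smooth muscle means lay within their WT QSC ranges. The part of these lists was not tested.

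After injury, the synthesis and one-carbon enzymes in cMet KO cells differed from the noninjured pool by at most 0.23. In cMet KO CSC against cMet KO QSC no gene passed (0% called, with 75 genes, or 0.537%, and none of the 10 at an unadjusted p under 0.05). Asns was at 10.42 in CSC against 10.65 in QSC (-0.23 ± 0.35, SE), Phgdh at 7.60 against 7.64, Psat1 at 9.70 against 9.73, Psph at 7.90 against 7.94 and Shmt2 at 8.64 against 8.63. The tested difference of this response from that of WT was -2.27 ± 0.40 for Asns (SE, adjusted p = 0.0727), -1.53 ± 0.35 for Phgdh (0.142), -1.42 ± 0.48 for Shmt2 (0.355) and -1.23 ± 0.26 for Psat1 (0.124). None of the 10 passed, against 0.158% of all genes, and 5 had an unadjusted p under 0.05, as did 9.52% of all genes. With the pool as a random block over all arrays, Asns (adjusted p = 0.000632) and Phgdh (0.0456) passed. That setting takes the arrays of a pool singly, and these are technical arrays, not replicates of the genotype.

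Set directly against WT CSC, also a comparison added after the values were seen, cMet KO CSC was lower in 3 of the 10 genes and higher in none, with 3.35% of all genes called lower. Phgdh was at 7.60 in cMet KO CSC, against 9.25, 9.59 and 9.68 in WT CSC, a 3.74-fold lower level (-1.90 ± 0.24, SE, adjusted p = 0.00383). Shmt2 was at 8.64 against 10.11 to 10.39 (-1.60 ± 0.34, adjusted p = 0.0283), and Psat1 at 9.70 against 10.63 to 10.90 (-1.06 ± 0.19, adjusted p = 0.0135). Asns, at 10.42, was below all WT CSC pools by less (-0.52 ± 0.28, SE, adjusted p = 0.313). The count fell to 1, Phgdh, without WT CSC pool 2 or 3, and the call of Shmt2 was lost when any one of the 3 was left out.

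The folate one-carbon list was lower in 5 of 15 in this comparison, among them Tyms (-1.42 ± 0.29, SE), Gart (-1.18 ± 0.25) and Mthfd1l (-1.10 ± 0.23), and so were Got1 (-1.01 ± 0.24), Gsr (-0.98 ± 0.23), Vars (-1.76 ± 0.39) and Eif2b5 (-1.09 ± 0.27). Ddit3 was higher (1.11 ± 0.28, adjusted p = 0.0498). In the same pool 9 of 12 endothelial markers were higher than in WT CSC, with a list mean of 9.90 against 7.83 to 8.27 and with 3.4% of all genes called higher. Fibro-adipogenic markers were higher in 4 of 9, led by Lum (2.73 ± 0.27, SE), Dcn (2.14 ± 0.27) and Pdgfra (1.32 ± 0.23), with a list mean of 9.78 against 8.67 to 8.99. Also higher were 2 of 9 pericyte and smooth muscle markers, Rgs5 (2.20 ± 0.35) and Myh11 (2.07 ± 0.26), 2 of 8 macrophage markers, Ptprc (1.34 ± 0.21) and Cd14 (1.08 ± 0.26), and 1 of 12 satellite cell markers, Chodl (1.06 ± 0.24). The mature fibre marker Eno3 was lower (-3.03 ± 0.24), and so were 13 of 15 cell cycle genes, with a list mean of 8.71 against 10.23 to 10.24. Their part in the enzyme values was not tested. The comparisons of Rptor KO CSC, cMet KO CSC and 28-day CSC all use the same 3 WT CSC pools.

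The order of the groups differed between genes. For Asns it ran from WT CSC at 2.5 days (10.94 ± 0.18, SD, n = 3) through cMet KO QSC, cMet KO CSC, 28-day WT CSC and Rptor KO CSC to WT QSC (8.90 ± 0.38, SD, n = 3), TSC1 KO QSC and Rptor KO QSC. For Phgdh, WT CSC at 2.5 days led (9.50 ± 0.23), and the second group, Rptor KO CSC at 8.09, lay within the range of WT QSC (8.01 ± 0.25). After WT QSC came 28-day WT CSC (7.79), TSC1 KO QSC (7.75), cMet KO QSC (7.64) and cMet KO CSC (7.60), and neighbours among these differed by less than the SD of the WT QSC pools. Rptor KO QSC came last, at 6.89. Psat1, Psph and Shmt2 also had WT CSC at 2.5 days first, at means of 10.76, 8.53 and 10.24.

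The 4 regulators and stress genes had other orders, and most of their groups lay close together. Atf4 ran from 11.09 in TSC1 KO QSC through 11.07 in cMet KO QSC, 11.05 in 28-day WT CSC, 11.02 in cMet KO CSC and 11.00 ± 0.01 in WT QSC (SD, n = 3) to 10.80 ± 0.11 in WT CSC at 2.5 days, 10.77 in Rptor KO QSC and 10.66 in Rptor KO CSC. The 2 Rptor KO pools and WT CSC thus made up the low end. Atf5 had WT CSC at 2.5 days last (8.89 ± 0.06) and Rptor KO QSC first (9.73), the groups at the opposite ends for the 6 enzymes, with 28-day WT CSC, cMet KO CSC at 9.07, cMet KO QSC at 9.20, TSC1 KO QSC at 9.24 and Rptor KO CSC at 9.28 between them. These 5 all lay within the range of the WT QSC pools, 8.88 to 9.51. Trib3 was lowest in Rptor KO CSC (7.63), below the WT CSC pools, and highest at 28 days (8.32), with TSC1 KO QSC at 7.92 and cMet KO CSC at 8.10. Chac1 was lowest in Rptor KO CSC (9.92) and highest in cMet KO QSC (10.87), with cMet KO CSC at 10.41 and TSC1 KO QSC at 10.44.

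Across the 12 pools the 10 genes fell into sets by their Pearson correlation, given as a description with no test, since pools of a group are alike and 3 of the 12 are the WT CSC pools. Psat1 and Psph correlated at 0.97, Phgdh with Shmt2 at 0.90 and with Psat1 at 0.89, and Asns with Mthfd2 at 0.88. The weakest pairs among the 6 enzymes were Shmt2 with Mthfd2, at 0.44, and with Asns, at 0.56. Atf4 correlated with Chac1 at 0.80 and Trib3 at 0.67, and Chac1 with Trib3 at 0.81. Between the sets, Atf4 stood at -0.12 with Asns, -0.35 with Phgdh and 0.01 with Psat1. Atf5 correlated negatively with all 6 enzymes, from -0.80 with Mthfd2 to -0.38 with Shmt2.

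Among all genes tested, the 3 whose values over the 12 pools were most like Phgdh were Nif3l1 (r = 0.965), the G1 kinase Cdk4 (0.965) and the kinetochore gene Spc24 (0.964). Those most like Psat1 were Arpp19 (0.976), Ola1 (0.973) and Thg1l (0.972), and those most like Asns were Mef2a (0.945), Med6 (0.933) and Crls1 (0.931). Mthfd2 was most like Armcx4 (0.962), Zbtb6 (0.961) and Zfp35 (0.959). Atf4 was most like Csnk1a1 (0.965), Ube2h (0.963) and Ddx3x (0.957), and Trib3 like Adipor2 (0.906), Bcl2l13 (0.902) and Med20 (0.900). None of these is another of the 10 genes, which the search left out.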

How the data were processed

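Total RNA of each pool (100 ng per array) was measured on Affymetrix arrays of the Mouse Gene 1.0 ST design, per the labels' protocols. The deposited values are log2 probeset signals which the authors made by RMA (Affymetrix Expression Console), as the submitters' processing notes list. No version, build or grouping of arrays for normalization is given in the sources used here.

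Of 35556 probesets, 21789 had 1 gene symbol in the platform table. The brightest stood for its gene, arrays of a pool were averaged, and genes whose mean fell below log2 6.45, the 30th percentile, were not tested. Models with 1 mean per group over all 12 pools were fitted with limma 3.58.1 (R 4.3.3), with 4 residual and 5.01 prior degrees of freedom, and p was adjusted by Benjamini-Hochberg over 13956 genes. The labels number the WT QSC and 2.5-day WT CSC pools as biological replicates, and the other 6 pools carry technical replicate numbers only. The fit was tested on simulated data. The 10 genes, the other gene lists and the tests were chosen with earlier results of these data known, and 2 comparisons (Rptor KO CSC and cMet KO CSC against WT CSC) were added after the values were seen. Named genes of other lists are those past the threshold, up to 4 per list by size in WT CSC against WT QSC and up to 3 elsewhere; Cbs and the cell type markers were named in addition, after their values were seen. Alternatives were quantile normalization, centring, other filters, the mean of all probesets, eBayes with a trend and robustly, single arrays with a random block for the pool, first arrays, leaving out each WT pool, and the replicate number as a block. The number of arrays and pools limits the precision. Promoters are RefSeq's. Figures were drawn with matplotlib 3.10.9.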

Additional observations from a re-analysis of the deposited data

How the results depend on the processing

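None of the 17 called differences of the 10 genes changed direction under any alternative, and of 1700 alternative values 1630 kept their direction and side of the threshold, 18 lost it, 25 passed anew and 27 changed sign, all for uncalled differences of at most 0.202. In WT CSC against WT QSC, Asns, Phgdh, Psat1 and Shmt2 passed under all 16 alternatives (Asns at 1.82 to 2.19), and the count ran from 4 to 6 when a pool was left out. For 28-day against 2.5-day CSC the count ran from 3 to 5, for Rptor KO CSC against WT CSC from 1 to 6, for cMet KO CSC against WT CSC from 1 to 4, and for Rptor KO QSC against WT QSC from 0 to 1. In Rptor KO QSC, 1 gene (Psat1) was called with quantile normalization, the 50th percentile filter or first arrays, and 4 (Asns, Psat1, Psph, Mthfd2) with the pool as a random block. That block also called 1 gene in cMet KO QSC and 2 in the cMet response difference. It takes the arrays of a pool singly, and these are technical arrays, not replicates of a genotype. The cause was not tested. Sign changes in the 28-day pool against WT QSC were Psat1 at -0.021 with centring and from -0.013 to 0.084 leaving out a pool, and Shmt2 from -0.382 to 0.13. In TSC1 KO QSC, Atf5 was -0.011 with quantile normalization, -0.015 with first arrays and -0.078 to 0.236 leaving out a pool, and Chac1 0.013 with centring. In Rptor KO QSC, leaving out a pool gave -0.498 to 0.015 for Shmt2 and -0.08 to 0.061 for Trib3. In cMet KO QSC, Atf5 was -0.001 with quantile normalization, and leaving out a pool gave -0.121 to 0.194 for Atf5, -0.476 to 0.037 for Shmt2 and -0.062 to 0.029 for Psph. In cMet KO CSC against QSC, Shmt2 was -0.006 with quantile normalization and Phgdh 0.272 with first arrays. In the Rptor response difference, Chac1 was 0 with quantile normalization, 0.018 with the pool block and -0.119 to 0.138 leaving out a pool, and Mthfd2 -0.071 to 0.172. In the cMet response difference, Trib3 was -0.023 with centring and -0.08 to 0.062 leaving out a pool, and Atf5 -0.01 to 0.305. Chac1 in cMet KO CSC against WT CSC was -0.006 to 0.238. Deviations of same-numbered WT pools from their group means correlated at 0.319, -0.033 and -0.034 for replicates 1, 2 and 3. These values do not settle whether the numbers pair the pools. With the replicate number as a block, 6 of the 10 genes were called in place of 5, the addition being Mthfd2 (0.539, adjusted p = 0.031). Over all genes, the calls in WT CSC against WT QSC numbered 2510, and 1194 to 2620 leaving out a pool. With the pool as a random block, Rptor KO QSC had 235 calls in place of 17 and the cMet response difference 357 in place of 22, and centring left the latter with 0.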

Other observations

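Slc7a11, which brings cystine into the cell and is a textbook target of ATF4, did not follow the serine enzymes in the knockouts. It was at 8.69 in Rptor KO CSC and 6.92 in Rptor KO QSC, and at 8.21 in cMet KO CSC and 8.13 in cMet KO QSC, against 7.89, 8.36 and 8.21 in the WT CSC pools and 6.54, 7.17 and 7.58 in the WT QSC pools. The Rptor KO CSC pool thus stood above all WT CSC pools, where Psat1 and Asns stood below them, and both cMet KO pools stood within the range of the WT CSC pools. Asns, which is not a serine enzyme, was likewise high in cMet KO, at 10.42 in CSC and 10.65 in QSC, against 8.47 to 9.20 in the WT QSC pools. The Rptor KO CSC pool also had the highest mean of the macrophage markers (9.47), and their part was not tested. Slc7a11 was picked after its values were seen, and no difference of it in the knockouts passed the test.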
